A study of Mus musculus with 2 samples.

Results

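The genes described here are the matrix metalloproteinases (MMP), the ADAMTS proteases and their inhibitors, the TIMPs and Reck, in whole mouse lung at embryonic day 15.5. They were chosen by name from the tables of both libraries: protein-coding genes called Mmp, Adamts or Timp followed by a number, plus Reck. The rule found 46 genes among 43346 Ensembl gene identifiers, 21474 of them protein-coding. These were 22 MMP genes, 19 ADAMTS genes, 4 TIMP genes and Reck. Mmp1a also bears such a name, but GENCODE M21 types it as a polymorphic pseudogene, so it was left out, and it was listed at 0 in both libraries.

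MMPs and ADAMTS enzymes are zinc-dependent metalloproteinases that act on the extracellular matrix. Most are made as proenzymes whose prodomain must be removed, MMPs cut collagens, gelatin, laminins and growth factor carriers, and ADAMTS enzymes process procollagens, cut large proteoglycans or take part in microfibril assembly. TIMPs are secreted inhibitors that bind the active site of MMPs, and some also inhibit ADAM and ADAMTS enzymes, while Reck is a glycolipid-anchored inhibitor at the cell surface. In the embryonic lung the airway tree grows into a mesenchyme whose matrix is remodelled as the branches form.

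The study sequenced total RNA of a single group of 2 libraries, with no treated, mutant or other-age group. The lungs pooled came from 78 embryos in replicate 1 and 62 in replicate 2, all of strain B6NCrl and healthy, males with females. The libraries held 40395849.8 and 36601054.1 estimated reads. Each pool has 1 library, so the spread between libraries joins pool, dissection, extraction and library preparation, which cannot be told apart, and no test between conditions exists. Values are TPM, a transcript level scaled for length and library total, given for replicate 1 and then replicate 2. A mean is given ± SD (n = 2), and a gene counted as detected when each library gave it at least 1 TPM. All 8 lung markers examined (such as Nkx2-1, Sftpc and Foxf1) were detected. In RNA from whole tissue, few cells with much RNA and many cells with little RNA cannot be told apart.

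Of the 46 members, 31 were detected (67.4%), against 60.7% of all protein-coding genes. The families differed in this share: 17 of 19 ADAMTS genes and all 4 TIMP genes were detected, as was Reck, but 9 of 22 MMP genes. The median of the members' mean levels was 3.03 TPM, against 4.77 TPM over all protein-coding genes. A mean of 10 TPM or more was reached by 13 members, and 2 of these, Mmp2 and Mmp14, exceeded 100 TPM. Together the members held 0.0853% ± 0.00313 of all TPM.

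**Figure D1:**
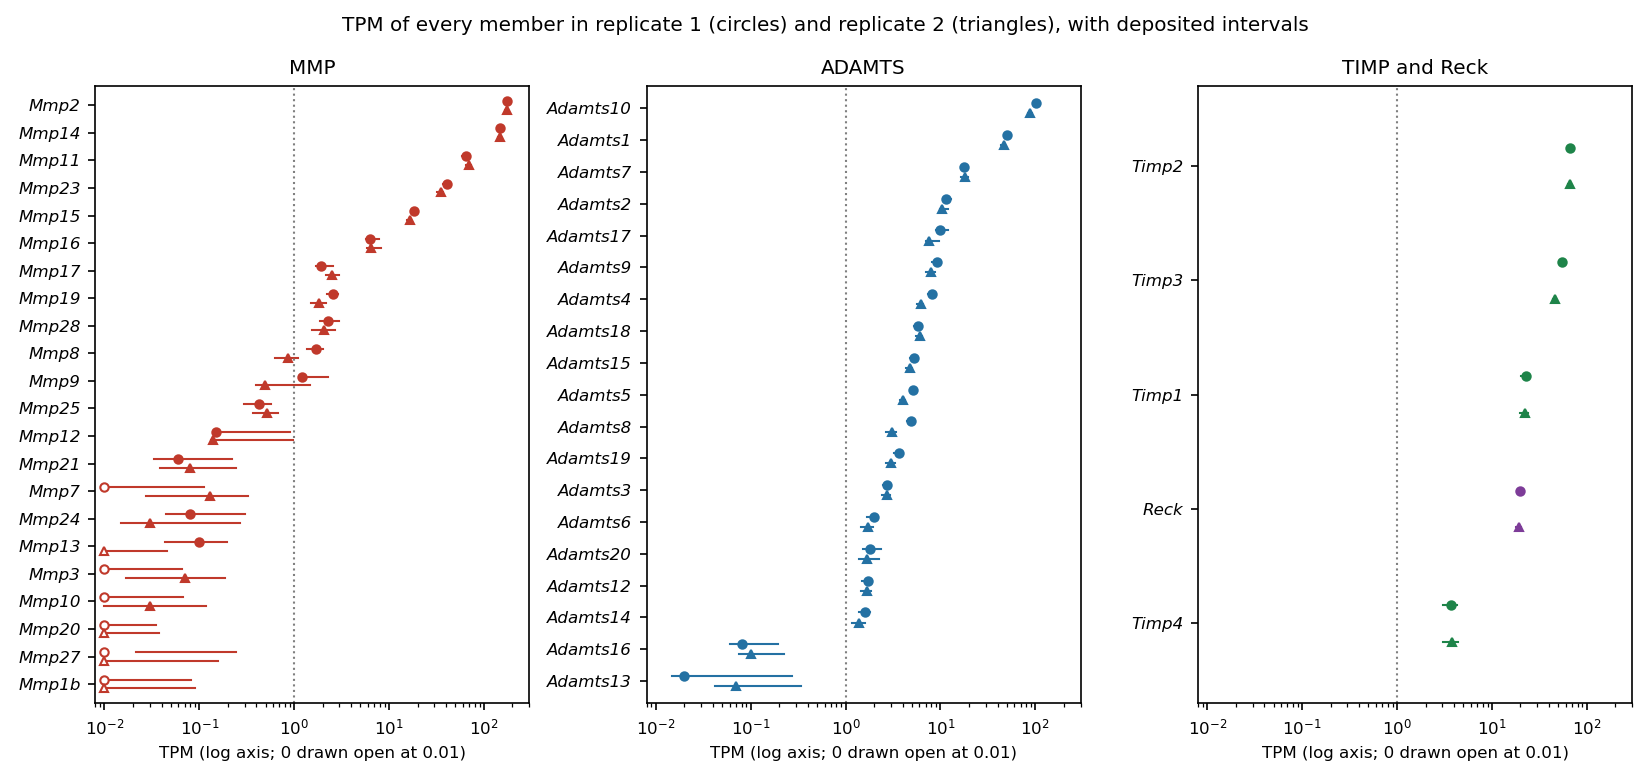
TPM of each of the 46 members on a log axis, in panels for the MMP genes, the ADAMTS genes, and the TIMP genes with Reck. Circles are replicate 1, triangles are replicate 2, bars are the deposited TPM intervals, the dotted line marks 1 TPM, and open symbols stand for 0. Mmp2 lies highest at 174 TPM on average, and the lower part of the MMP panel holds the 13 MMP genes that were not detected.

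Gelatinases cut denatured collagen and basement membrane collagen, and the pair of genes in this class differed widely. Mmp2 (chr8:92827291-92853420, GRCm38), the gelatinase of mesenchymal cells, had 175.2 and 173.35 TPM, from 13624 and 12534 reads. It was the highest member in both libraries, above 96.1% of protein-coding genes. Mmp9 (chr2:164940780-164955850), the gelatinase known from neutrophils, macrophages and osteoclasts, had 1.2 and 0.49 TPM, from 98 and 25 reads, and was not detected by the rule. Its intervals ran from 1.15 to 2.28 TPM in replicate 1 and from 0.400 to 1.49 TPM in replicate 2, so they overlapped for the whole gene. The intervals of its leading coding transcript, Mmp9-201 (1.2 and 0.28 TPM), did not overlap. They ran from 0.906 to 1.38 TPM in replicate 1 and from 0.141 to 0.399 TPM in replicate 2. Markers of neutrophils, a source of Mmp8 and Mmp9 in the adult, were low but present, with 5 of 8 detected and a summed level of 41.3 and 52.6 TPM. S100a8 was the highest of these, at 22.57 and 30.8 TPM, and Elane, a defining protease of neutrophil precursors, had 0.23 and 0.59 TPM. Like S100a8 and Elane, the neutrophil genes S100a9, Camp and Mpo were higher in replicate 2, Mpo at 0.6 and 2.06 TPM. The remaining neutrophil genes went the opposite way between the libraries or stayed level, with Ngp at 3.35 and 2.61 TPM, Ltf at 1.13 and 0.98 TPM and Prtn3 at 3.18 and 3.1 TPM. Within this neutrophil list only S100a8 and Mpo had deposited intervals apart between the libraries. Elane rested on 5 and 12 reads and Camp on 15 and 17. Macrophage markers were detected in 6 of 6 cases and summed to 148 and 138 TPM. The part of either cell type in the levels of Mmp8 and Mmp9 was not tested.

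Membrane-type MMPs act at the cell surface, where MMP14 with TIMP2 activates the proenzyme of MMP2. Mmp14 (chr14:54431612-54445364) had 149.42 and 146.56 TPM, the second level among the members. Mmp2 exceeded it 1.18-fold ± 0.00725, with intervals apart in both libraries. Mmp15 (chr8:95352268-95375080) had 18.22 and 16.62 TPM and Mmp16 had 6.35 and 6.44 TPM, so Mmp14 stood 8.51-fold ± 0.437 and 23.1-fold ± 0.547 above these related transmembrane enzymes. Mmp23, which encodes a short membrane-anchored MMP, reached 40.41 and 34.96 TPM. Of the glycolipid-anchored pair, Mmp17 had 1.92 and 2.52 TPM and Mmp25, an enzyme known from leukocytes, had 0.43 and 0.52 TPM. Mmp24, known from the nervous system, had 0.08 and 0.03 TPM. In all, 5 of these 7 genes were detected and the class summed to 212 ± 6.49 TPM, more than any other class of MMP, with the gelatinases next at 175 ± 1.81 TPM.

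Stromelysins were represented by a single gene. Mmp11 (chr10:75923222-75936496), stromelysin 3, which is activated inside the cell by furin-like convertases, had 64.23 and 70.08 TPM. Mmp3 and Mmp10, the stromelysins proper, had 0 and 0.07 TPM and 0 and 0.03 TPM. Among the other secreted MMPs, Mmp19 had 2.59 and 1.85 TPM and Mmp28 (epilysin) had 2.27 and 2.05 TPM. Metalloelastase, Mmp12, a gene known from alveolar macrophages, had 0.15 and 0.14 TPM, and Mmp21 had 0.06 and 0.08 TPM. All the collagenases were below detection: Mmp8 had 1.7 and 0.86 TPM, Mmp13 0.1 and 0 TPM, and Mmp1b was at 0. Mmp13 is best known from hypertrophic cartilage and bone, and of 6 markers of those tissues only Ibsp was detected, at 4.32 and 3.86 TPM, while Col10a1 had 0.19 and 0.16 TPM. The level of the MMP family was concentrated in few genes: Mmp2 and Mmp14 held 70.0% ± 0.0880 of its summed TPM, and with Mmp11 and Mmp23 they held 92.7% ± 0.413.

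The MMP genes below detection lie largely in a single place. On chromosome 9, 9 members lie side by side between 7272514 and 7699585 (427.1 kb), in the order Mmp13, Mmp12, Mmp1b, Mmp3, Mmp10, Mmp8, Mmp27, Mmp20 and Mmp7. None was detected, and their median was 0.0350 TPM. The 13 MMP genes elsewhere in the genome had a median of 2.22 TPM, and 9 of them were detected. The cluster gathered 120 and 60 estimated reads in all, of which Mmp8 had 106 and 50. It held 0.345% ± 0.107 of the MMP TPM. Mmp1b, Mmp20 (enamelysin of developing teeth) and Mmp27 were at 0 in both libraries. A count of 0 allows up to 3 reads, which equals up to 0.0903 TPM for Mmp1b, 0.0384 TPM for Mmp20 and 0.0743 TPM for Mmp27 in replicate 2, the shallower library. For Mmp27 the deposited intervals reached further, to 0.245 and 0.156 TPM. Mmp7 (matrilysin, known from epithelia), Mmp3 and Mmp10 were at 0 in replicate 1 only, where the same limit is 0.117, 0.0667 and 0.0699 TPM. Mmp13 was at 0 in replicate 2 only, with a limit of 0.0473 TPM. In the other library Mmp7, Mmp3 and Mmp10 had 1 to 3 reads, within that limit, and Mmp13 had 7 reads in replicate 1, or 0.1 TPM.

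**Figure D2:**
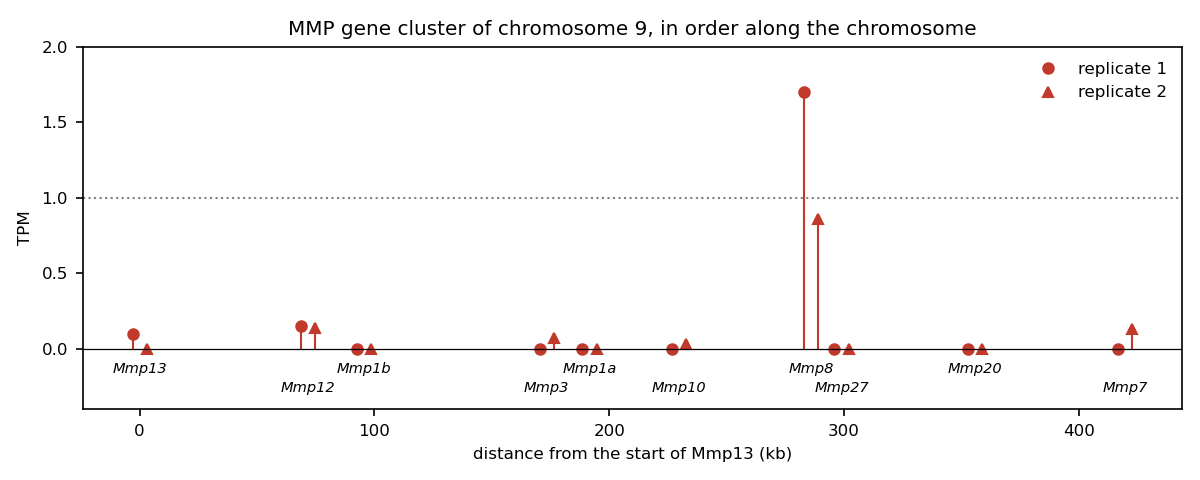
TPM of the MMP genes of the chromosome 9 cluster against the distance of each gene's start from the start of Mmp13 in kb, with Mmp1a shown for its place. Circles are replicate 1 and triangles are replicate 2, set 3 kb to either side of the gene's start for clarity, and the dotted line marks 1 TPM. Mmp8 stands out with 1.7 and 0.86 TPM, and the other members of the cluster lie at 0.15 TPM or below.

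Promoter sequences from RefSeq (build GRCm38.p6) were at hand for 32 of the 46 members, among them all 9 genes of the cluster. They are shown because the cluster differs from the expressed members in the letters just before the gene start. In the 110 bases before the start of 3 cluster genes, capitals mark an AP-1 motif, the letters TGANTCA, and a TATA box, the letters TATAAA. For 3 well expressed members, capitals mark GC boxes, the letters GGGCGG, read here on the gene's strand. All are printed 5′ to 3′ on the gene's strand.
Mmp13 (chr9:7272404-7272513, plus strand): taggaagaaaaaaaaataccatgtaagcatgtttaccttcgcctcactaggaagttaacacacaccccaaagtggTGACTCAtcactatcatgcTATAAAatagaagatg
Mmp3 (chr9:7445712-7445821, plus strand): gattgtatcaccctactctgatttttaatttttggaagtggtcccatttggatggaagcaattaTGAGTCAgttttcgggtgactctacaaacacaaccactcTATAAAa
Mmp10 (chr9:7502232-7502341, plus strand): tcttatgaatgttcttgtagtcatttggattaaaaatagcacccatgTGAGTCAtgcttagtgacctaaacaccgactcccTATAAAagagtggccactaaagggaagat
Mmp14 (chr14:54431488-54431597, plus strand): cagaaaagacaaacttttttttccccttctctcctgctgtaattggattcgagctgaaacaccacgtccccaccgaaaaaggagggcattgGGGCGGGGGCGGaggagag
Timp2 (chr11:118355412-118355521, minus strand): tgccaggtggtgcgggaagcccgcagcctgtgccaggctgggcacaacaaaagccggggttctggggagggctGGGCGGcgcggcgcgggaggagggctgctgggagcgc
Mmp11 (chr10:75932503-75932612, minus strand): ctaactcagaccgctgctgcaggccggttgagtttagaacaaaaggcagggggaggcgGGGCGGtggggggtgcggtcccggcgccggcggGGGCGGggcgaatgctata
The RefSeq start used for Mmp11 lies 3994 bases from the GENCODE M21 start and that of Timp2 329 bases from it, both inside the gene, and that of Adamts20, counted below but not printed, lies 61068 bases away. The AP-1 motif begins 35 bases before the start in Mmp13, 46 in Mmp3 and 63 in Mmp10, and TATAAA begins 16, 7 and 29 bases before it. All the printed genes carry the marked letters, which not all members of either kind do. In the stretches searched below, Mmp8, Mmp12 and Mmp27 of the cluster had neither the AP-1 letters nor TATAAA. Mmp23, a detected member, had no GC box. For Mmp2 and Adamts10 no sequence was at hand.

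Over the 250 bases before the start, searched on both strands, the AP-1 letters occurred in 6 of the 9 cluster genes (66.7%), in 0 of the 23 other members and in 6.75% of the 32851 promoter windows of the table. The motif reads the same on both strands, so each site counts once. TATAAA on the gene's strand within the last 50 bases occurred in 5 of the 9 cluster genes (55.6%). It occurred in 1 of the other members, Adamts1, and in 2.63% of all windows. The GC box went the other way, with 0 of 9 cluster genes, 17 of 23 other members (73.9%) and 32.7% of all windows, either strand counted. The median share of G and C was 40.0% in the cluster, 65.2% in the other members and 52.4% over all windows. Cluster genes are neighbouring copies of a common ancestor, so their promoters are not independent of each other. These matches describe letters and are not evidence of binding.

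By whole-gene TPM, the highest ADAMTS gene belongs to the class linked to fibrillin microfibrils. Adamts10 (chr17:33524204-33553782), the gene of a recessive form of Weill-Marchesani syndrome, had 101.7 and 88.31 TPM, and its paralog Adamts6 had 1.98 and 1.71 TPM, so they differed 51.5-fold ± 0.198. On protein-coding transcripts alone the fold was 10.8 ± 0.0818, and Adamts1 then stood above Adamts10, by 2.37-fold ± 0.0883. The other pair of this class was lower, Adamts17 at 9.81 and 7.65 TPM and Adamts19 at 3.63 and 3.04 TPM. Adamts10 held 41.4% ± 0.596 of the ADAMTS TPM, and with Adamts1 62.6% ± 0.0228. Most of the Adamts10 level came from transcripts that the annotation does not type as protein-coding.

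The class that cuts versican, aggrecan and related proteoglycans was detected whole, in 7 of 7 genes, and summed to 79.6 ± 7.54 TPM. Adamts1 (chr16:85793827-85803113) led it with 50.48 and 46.48 TPM. Adamts9 followed with 9.18 and 8.05 TPM, Adamts4 (aggrecanase 1) with 8.14 and 6.21 TPM, Adamts15 with 5.28 and 4.75 TPM and Adamts5 (aggrecanase 2) with 5.13 and 4.07 TPM. Adamts8 had 4.92 and 3.05 TPM and Adamts20, known from pigment cell development, had 1.82 and 1.68 TPM. Adamts1 lies 53.1 kb from Adamts5 on the same strand of chromosome 16 and exceeded it 10.6-fold ± 1.12. Adamts15 and Adamts8 lie 20.1 kb apart on opposite strands of chromosome 9, and their levels stood in a ratio of 1.32 ± 0.342, with intervals that were not apart in both libraries. Of the substrates, Vcan had 47.13 and 49.72 TPM, while Acan (0.38 and 0.29 TPM), Bcan (0.06 and 0.15 TPM) and Ncan (0.19 and 0.19 TPM) were not detected.

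Procollagen N-proteinases remove the amino propeptide of fibrillar procollagens, and all 3 were detected. Adamts2 (chr11:50602084-50807573) had 11.41 and 10.46 TPM, Adamts3 2.73 and 2.73 TPM and Adamts14 1.6 and 1.38 TPM. Adamts2 thus stood 4.01-fold ± 0.246 above Adamts3 and 7.36-fold ± 0.317 above Adamts14, with intervals apart in both libraries. Of the fibrillar procollagen genes, those of types I and III were among the most abundant genes of the lists examined, with Col3a1 at 1358.98 and 1263.54 TPM and Col1a1 at 1062.24 and 998.3 TPM. Bmp1, which removes the carboxyl propeptide, had 69.69 and 64.19 TPM.

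Of the pair that cuts cartilage oligomeric matrix protein, Adamts7 (chr9:90163069-90208071) had 17.66 and 17.97 TPM and Adamts12 1.73 and 1.67 TPM, a ratio of 10.5 ± 0.391. Their substrate gene Comp had 0.39 and 0.58 TPM and was not detected. Adamts13, which trims von Willebrand factor and is made chiefly in the liver, had 0.02 and 0.07 TPM from 2 and 6 reads, whereas Vwf had 17.54 and 15.92 TPM. Of the last pair, Adamts18, a gene known from eye and lung development, had 5.81 and 6.06 TPM and Adamts16 had 0.08 and 0.1 TPM. They differed 66.6-fold ± 8.50, and Adamts13 and Adamts16 were the ADAMTS genes below detection.

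All 4 inhibitors of the TIMP family were detected. Timp2 (chr11:118301069-118355740), the inhibitor that also takes part in the activation of MMP2, had 66.89 and 66.88 TPM. Timp3 (chr10:86300372-86349506), which is bound to the matrix and also inhibits ADAM17 and aggrecanases, had 54.47 and 46.53 TPM. Timp1 (chrX:20870166-20874735) had 22.8 and 22.11 TPM and Timp4 3.73 and 3.77 TPM. The order Timp2, Timp3, Timp1, Timp4 held in both libraries with intervals apart at each step, by 1.33-fold ± 0.148, 2.25-fold ± 0.201 and 5.99-fold ± 0.175. Reck (chr4:43875530-43944806) had 19.64 and 19.26 TPM, near Timp1. Timp2 and Timp3 held 46.6% ± 1.97 and 35.1% ± 2.42 of the TIMP TPM, and Timp4 2.61% ± 0.130.

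Set against the proteases, the 4 TIMP genes summed to 144 ± 6.08 TPM, the MMP genes to 461 ± 5.34 TPM and the ADAMTS genes to 229 ± 19.6 TPM. The TIMP sum was 0.312 ± 0.00959 of the MMP sum, and the MMP sum was 2.02-fold ± 0.149 the ADAMTS sum. Mmp2 stood 2.61-fold ± 0.0193 and Mmp14 2.21-fold ± 0.0300 above Timp2. These are ratios of RNA levels and say nothing of the ratio of the proteins.

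In the order of levels, 2 genes were taken to differ when the same one was higher in each library and their deposited intervals were apart in both. Of the 465 pairs of detected members, 410 differed (88.2%). Among the 30 pairs of neighbours in the order, 7 differed. The top of the order was therefore resolved, with Mmp2, Mmp14 and Adamts10 each apart from the next. Mmp11 and Timp2 followed without a difference between them, then Timp3 and Adamts1, then Mmp23 alone, and then Timp1, Reck, Adamts7 and Mmp15 as a run of neighbours that did not differ. The other 19 detected members, from Adamts2 at 10.9 TPM to Adamts14 at 1.49 TPM on average, formed a last run in which no neighbours differed, although distant ones did.

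Transcript tables split each gene's TPM over its annotated transcripts. Of the 31 detected members, 19 had a transcript holding 90% or more in both libraries, among them Mmp2, Mmp14 and Timp2, where it held 100%. In 10 members at least 2 transcripts held 10% or more in both libraries. The leading transcript was the same in both libraries for 30 of the 31. Timp1 was the exception: Timp1-201 held 49.45% and 57.01%, and Timp1-202 50.55% and 42.99%.

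Adamts10 had 5 transcripts at 10% or more in both libraries, as did Adamts9. Its leading transcript, Adamts10-207, is typed as a target of nonsense-mediated decay and held 25.68% and 27.58%. The protein-coding transcript, Adamts10-201, held 21.07% and 20.74%, which is 21.43 and 18.31 TPM. Transcripts typed as retained introns held 48.2% on average and those typed for nonsense-mediated decay 30.9%. A short transcript weighs more in TPM than in reads, and by reads the protein-coding transcript held 26.8% and 26.34%. On coding transcripts alone Adamts10 had 19.9 ± 2.21 TPM and moved from place 3 to place 9 among the members.

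Coding shares under 50% were also found in Adamts9 (28.8% and 27.1%) and Adamts20 (41.8% and 47.6%), and Adamts20 then fell short of detection, which left 30 members detected. By reads these shares were higher, at 50.11% and 50.63% for Adamts9 and 72.43% and 76.92% for Adamts20. By TPM, Adamts9 was led by the processed transcript Adamts9-204, at 31.19% and 36.51%, and Adamts20 by the retained-intron transcript Adamts20-203, at 58.07% and 52.07%. By reads Adamts9-204 held 10.06% and 12.26%, and Adamts20 was led by the protein-coding Adamts20-204, at 72.43% and 74.21%. The other members with several transcripts were led by protein-coding ones. Mmp23-201 held 58.63% and 55.89% of its gene, Adamts17-201 51.38% and 60.65%, Mmp16-201 53.35% and 54.4%, Adamts7-201 47.98% and 45.15%, and Adamts8-201 70.96% and 77.37%. Adamts2-201 held 85.1% and 83.51%, beside a processed transcript. Summed over families, coding transcripts held 94.8% and 93.4% of the MMP TPM, but 58% and 58.7% of the ADAMTS TPM, and the MMP sum over the ADAMTS sum became 3.25. Most of the ADAMTS level outside coding transcripts came from Adamts10. A coding share of 95% or more was found in 10 of 17 detected ADAMTS genes and 5 of 9 detected MMP genes. The set of coding transcripts was chosen after the values had been seen.

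**Figure D3:**
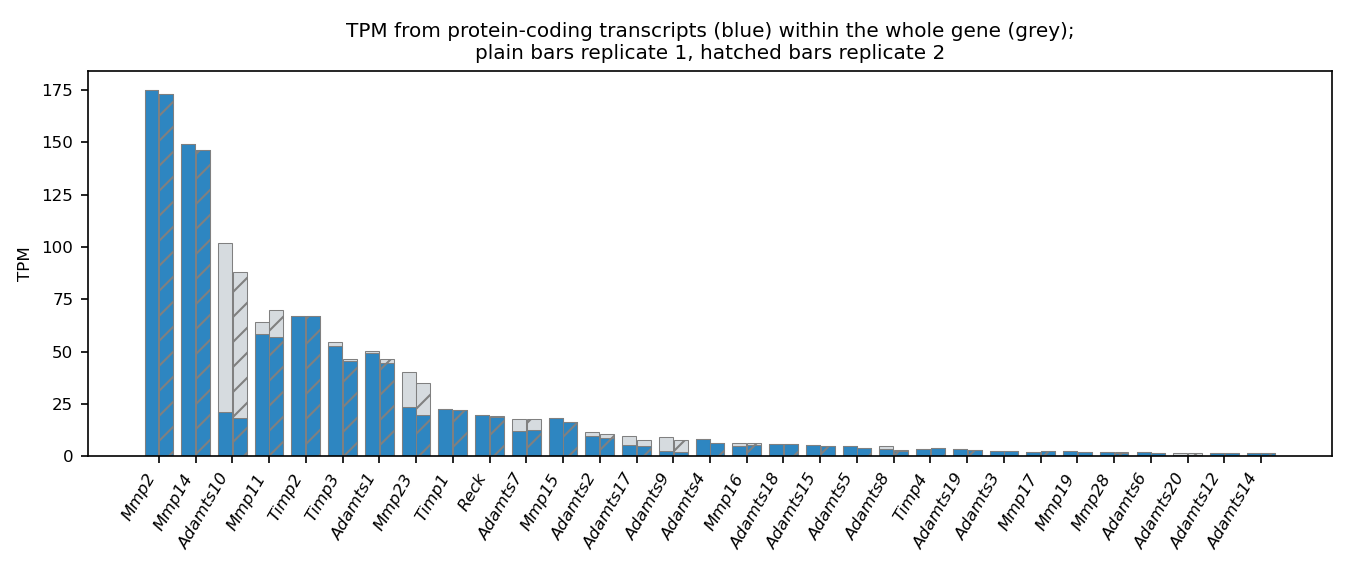
TPM of the 31 detected members in order of their mean level, on a linear axis that starts at 0. Grey bars give the whole gene and blue bars within them the part from protein-coding transcripts, plain for replicate 1 and hatched for replicate 2. Adamts10 stands out, with 21.43 of 101.7 TPM and 18.31 of 88.31 TPM in blue, and Mmp23 shows the next widest grey part.

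Several members share their position with other genes. Of the 46, 19 are overlapped by another annotated gene, 17 of them by a gene on the opposite strand, and for 7 the opposite gene reached 1 TPM in both libraries. Whether counting used strand is not given in the sources used here, so reads of a member and its opposite gene may not be separable where their exons meet. Mmp19 meets Tmem198b (14.02 and 13.22 TPM), Mmp11 meets Chchd10 (37.43 and 35.32 TPM) and Adamts7 meets Tbc1d2b (19.12 and 17.46 TPM). Timp1, Timp3 and Timp4 each lie inside a synapsin gene on the opposite strand. Those genes were lower than the inhibitor they enclose, with Syn1 at 0.32 and 0.18 TPM, Syn3 at 2.16 and 1.75 TPM and Syn2 at 1.41 and 1.07 TPM.

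Between the replicate pools no member differed by the rule that follows. A gene was called apart when its mean was at least 5 TPM, its TPM differed 2-fold or more after TMM scaling (a scaling that sets the bulk of genes equal) and its intervals did not overlap. None of the 19 members at this level was called, against 41 of 11261 genes (0.364%). With the minimum mean lowered to 1 TPM, 0 of 32 members were called, against 162 of 15152 genes (1.07%). With so few calls over all genes, 0 calls among the members do not set them apart from other genes. After scaling, 18 of the detected members were higher in replicate 1 and 13 in replicate 2. Their log2 ratios, replicate 2 over replicate 1, had a median of -0.0540 and ran from -0.618 (Adamts8) to 0.464 (Mmp17), against a median of 0.00798 over all detected protein-coding genes.

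Smaller differences exceeded the deposited intervals in some members. With no minimum fold, the scaled intervals of 6 of the 32 members with a mean of 1 TPM or more were apart and higher in replicate 1, where 4.51% of all genes tested were. These were Mmp8, Adamts4, Timp3, Adamts5, Adamts10 and Adamts8, with log2 ratios of -0.91, -0.32, -0.16, -0.26, -0.13 and -0.62. A single member, Mmp2, was apart and higher in replicate 2, by a log2 ratio of 0.06, where 7.30% of all genes tested were. That call rests on the scaling: as deposited, Mmp2 had a log2 ratio of -0.015 and intervals that overlapped. Without a minimum fold the calls take in differences smaller than the spread between the pools, since the intervals take in counting and read assignment alone. This comparison was added after the data were seen. That spread was an SD of the log2 ratio of 0.659 over all genes at 1 to 5 TPM, 0.269 at 5 to 20 TPM, 0.145 at 20 to 100 TPM and 0.0974 at 100 to 1000 TPM.

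**Figure D4:**
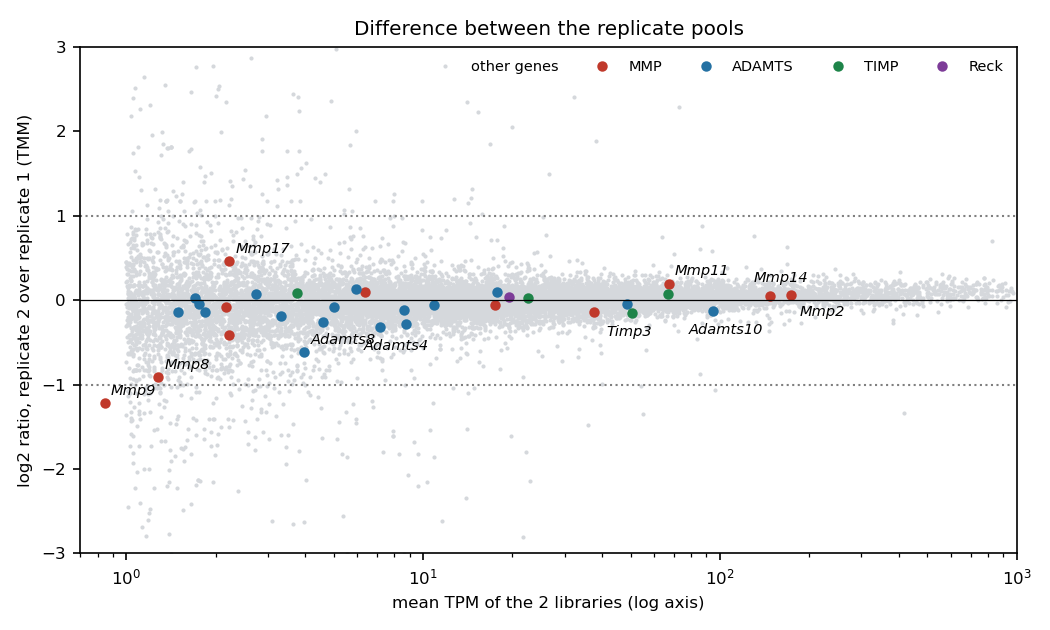
The log2 ratio of replicate 2 over replicate 1 after TMM scaling against the mean TPM on a log axis, for members (coloured by family) with a mean of 0.8 TPM or more and for all other genes from 1 TPM (grey). Dotted lines mark a 2-fold difference, and other genes with ratios beyond 3 in size or means of 1000 TPM or more are not drawn. Members from 5 TPM upward lie well within the dotted lines, and Mmp8 and Mmp9 lie lowest at -0.91 and -1.22.

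Marker lists of other cell types gave unequal levels in the pools, measured by the summed TPM of 6 markers each. The hepatocyte sum was 32.8 and 152 TPM and the striated muscle sum 179.6 and 308 TPM, so both were higher in replicate 2. Within the muscle list Myh6 went the opposite way, at 80.27 and 29.88 TPM, and Ckm was level at 34.62 and 34.57 TPM. The thymus and T cell sum was 94.8 and 18.8 TPM and the squamous epithelium sum 49.9 and 15.4 TPM, so both were higher in replicate 1. Bpifa1, the highest gene of the squamous list in replicate 1, had 15.43 and 1.82 TPM. Whether that list marks squamous epithelium rather than another epithelium, or tissue from outside the lung, was not tested. The part of any of these cell types in the differences of the members was not tested. Of 6 markers of cartilage, a tissue in which several ADAMTS genes are known to act, 4 were detected in both pools. Sox9 was the highest at 53.61 and 53.81 TPM, and the tissue's collagen gene Col2a1 had 17.23 and 16.09 TPM. Matn1 (0.52 and 0.21 TPM) and Acan (0.38 and 0.29 TPM) were not detected. Whether the detected genes mark cartilage in these pools was not tested.

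Genes that act with the members were taken from lists of activators, relatives and substrates, and 36 of these 50 genes were detected. Over all protein-coding genes 60.7% were detected, and the counts per list that follow are to be read against that share. The lists were chosen with earlier results of these data known. Convertases that cut the prodomains, and the enzymes that add sugars to the thrombospondin repeats of ADAMTS proteins, were detected in 6 of 6 cases. Pofut2, which adds fucose to these repeats, was the highest at 114.43 and 107.18 TPM, Furin had 14.11 and 13.67 TPM and Pcsk6 was lowest at 6.52 and 7.84 TPM. ADAMTS-like genes, whose products resemble ADAMTS enzymes without a protease domain, were detected in 6 of 7 cases. Adamtsl2, which binds fibrillin and is known from abnormal bronchi in mutant mice, led with 23.48 and 17.28 TPM, and Papln was lowest at 0.79 and 0.58 TPM.

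All 8 ADAM sheddase genes were detected, from Adam8 at 1.52 and 1.17 TPM to Adam10 at 72.5 and 70.29 TPM. Adam17, a sheddase that TIMP3 inhibits, had 37.99 and 38.55 TPM. Of 5 astacin protease genes only Bmp1 was detected, and Tll2 had 0.01 and 0.01 TPM. In the plasminogen system, a source of plasmin that can activate several proMMPs, 3 of 7 genes were detected. Serpine2, a plasminogen activator inhibitor also called protease nexin, had 302.99 and 299.35 TPM, and the activator Plat 24.96 and 25.05 TPM. The other activator Plau had 0.72 and 0.98 TPM. Plg had 0.28 and 1.24 TPM and Serpinf2 0.74 and 3.58 TPM, both higher in replicate 2, as was the hepatocyte sum.

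Bsg, a membrane glycoprotein known as an inducer of MMPs, had 974.04 and 923.83 TPM. Lrp1, the endocytic receptor that clears MMP and ADAMTS proteins from the matrix, had 60.86 and 61.12 TPM. Of the trapping inhibitors, A2m had 6.18 and 6.41 TPM and Pzp 0.22 and 0.97 TPM. Among 13 substrate genes 9 were detected, with Eln at 391.06 and 421.57 TPM, Fbn1 at 27.45 and 25.45 TPM and Fbn2 at 62.93 and 60.12 TPM.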

How the data were processed

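Total RNA longer than 200 nt was extracted by the mirVana method, 10 ng entered each library, and spike-ins were added, per the labels' protocols. The authors deposited gene and transcript tables. Expected counts are estimated reads per feature, TPM and FPKM are scaled for effective length and library size, and the percent of a gene's TPM held by each transcript is given, all per the file headers. A deposited TPM interval, of unstated level, is centred on the posterior mean, and the TPM of Mmp2 and Mmp14 lay outside it. The tables were made on mm10 with GENCODE M4, per the deposited description. The program and its version, like the use of strand, were not given in the sources used here.

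Names, types and positions (1-based, GRCm38) came from GENCODE M21, which matched 97.96% of the Ensembl identifiers. Features that name no gene, spike-ins included, held 2.14% and 2.37% of reads and stayed out of library sizes. Rounded expected counts gave TMM factors (edgeR 4.0.16, R 4.3.3) and DESeq2 1.42.0 size factors. TMM put a log2 shift of 0.07 on the TPM of replicate 2. The scaling and calls were tested on simulated data in which every change set exceeded 2-fold. That test does not cover smaller differences or errors of read assignment. Promoters came from the RefSeq table, where 14 members had no entry. Floors of 3 reads cover counting error only, and the deposited intervals counting error and read assignment.

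The members and lists were chosen with earlier results of these data known. Values are given for every detected member, for the others by range, naming those at 0, for the highest and lowest gene of each list and those acting directly on a member, and for leading transcripts of members with several. Neighbouring genes, overlapping genes and the remaining genes named were chosen after their values were seen. Values of a few genes are not reported here. Alternatives were other minimum levels, point estimates, units, scalings and folds, an exact binomial test and leaving out a library.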

Additional observations from a re-analysis of the deposited data

How the results depend on the processing

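The count of 31 detected members was 30 to 33 under every alternative run except a minimum of 5 TPM, where it was 18. It was 31 without replicate 1 and 33 without replicate 2. No member was called apart between the pools under the other scalings or other minimum means. The same held for a 1.5-fold minimum and for the exact binomial test, both at a mean of 5 TPM. Mmp8, Mmp9 and Adamts8 have lower means and were outside both. Mmp8 (1.88-fold) and Adamts8 (1.54-fold) exceeded 1.5-fold, higher in replicate 1, with deposited intervals apart. With no minimum fold, alternatives added after the data were seen, 4 members were called at a mean of 5 TPM and 7 at a mean of 1 TPM. Leaving out the highest member of each family gave sums of 286 TPM for MMP, 134 TPM for ADAMTS and 76.7 TPM for TIMP, and a TIMP over MMP ratio of 0.268. Estimated reads, which are not scaled for length, gave ratios of 0.422 for TIMP over MMP and 1.24 for MMP over ADAMTS. The posterior mean gave an MMP sum of 453 TPM. Coding transcripts, an alternative added after the data were seen, gave 434 TPM for MMP, 134 TPM for ADAMTS, a TIMP over MMP ratio of 0.328 and an MMP over ADAMTS ratio of 3.25. They moved 5 detected members over 1.5-fold (Adamts20, Adamts10, Mmp23, Adamts9 and Adamts17). The posterior mean moved the level of a detected member by between -2.30% and 7.67%. With TPM as deposited, 7 of the 31 detected members were no longer higher in replicate 2. Among them Adamts3 was level at 2.73 and 2.73 TPM, and Timp2 was nearly level at 66.89 and 66.88 TPM. Members with several transcripts numbered 7 by reads and 10 by TPM. Of the 50 genes acting with the members, 40 were detected at 0.5 TPM and 31 at 5 TPM. No paired analysis was possible because the labels give a single group.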
